A study of Mus musculus with 2 samples.

Results

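The motile cilium and axoneme genes described here are 33 of the 21937 genes in the deposited table. They were chosen by gene symbol, with earlier results of these data known. They are radial spoke (Rsph), tektin (Tekt) and tubulin tyrosine ligase-like (Ttll) genes, the dynein gene Dnali1, and Spag6, Spag16, Spag17, Ccdc39, Ccdc40, Hydin, Rfx2 and Rfx3. Of these, 26 had a mean of at least 10 normalised reads over both groups and are described in full, and 7 lay below that level. The rule also asked for the symbols Dnah and Dnai, which match 0 rows, because the table lists these axonemal dynein genes under the older symbols Dnahc and Dnaic. The 12 dynein rows under older symbols, 11 of them at or above 10, are described beside the members and counted apart.

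The RNA came from mouse embryonic stem (ES) cells, wild type and of mixed 129Sv-C57Bl/6 background, grown without feeder cells. One group was treated for 16 h with 500 nM ICRF-193, a catalytic inhibitor of topoisomerase II, and the other for 16 h with DMSO, its solvent. Each group held 3 libraries, and since the labels name no separate cultures, the spread behind each p-value may be technical. The table gives group means in normalised reads, that is, reads scaled by each library's size factor, and whole reads per library were worked back from the digits of those means. Within a group, A is the library with the largest size factor and C the one with the smallest, and no label pairs libraries across groups. Ratios within libraries A, or within libraries B and C, set the libraries with these letters in both groups side by side. In bulk RNA, fewer cells of a type and less RNA per cell cannot be told apart.

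A motile cilium beats because dynein motors slide the doublet microtubules of its core, the axoneme, against each other. Radial spokes and a central pair of microtubules control the motors, tektins stiffen the doublets, and a ruler of Ccdc39 and Ccdc40 sets where spokes and inner dynein arms dock. Enzymes of the Ttll family add glutamate or glycine chains to tubulin and so tune the motors. The transcription factors Foxj1, Rfx2 and Rfx3 switch on axoneme genes in multiciliated cells, and many of these genes are also active in the sperm flagellum. A primary cilium, the single sensory cilium of many other cells, is built without most of these motility parts.

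RFX factors bind the X-box, a pair of inverted arms, so the promoter windows of the members were searched for it. The motif was GTTNCC followed by GGNAAC with 0 to 3 bases between them and at most 1 mismatch over the 10 fixed letters, and this pair reads the same on both strands. The windows are those of RefSeq on GRCm38.p6, from 250 bases before to 50 after the start, and 29 of the 33 members had one. A match occurred in 11 of these 29 members (37.9%) and in 3 of the 12 dynein genes (25%), against 6.15% of all 27025 genes with a window. An exact match occurred in 0 of the 29 members, 0 of the 12 dynein genes and 0.936% of all genes. The sites below are those of the 3 genes with a match that passed the deposited test, Ttll9, Ttll10 and Dnaic1, and of 4 genes that did not pass, picked by hand as examples. Matches in Rfx2, Rsph3b, Spag17, Tekt4, Ttll8, Ttll13 and Dnahc9 are not printed. Both arms, mismatch included, are in capitals.
Ttll9: ctcctttgGTTGCCgtAGCAACgagacgca
Ttll10: gaatcataGTTCCCtAGTAACagttgcctg
Dnaic1: gcctgtcgGTTGCTgGGTAACcgcgtcagg
Dnaic2: cggccaggGTTGCTaGGCAACtggtaaact
Tekt2: agggggcgGTTGCTcGGCAACcagagccgc
Hydin: actctgcgGTTGCTgtGGCAACagatggta
Spag16: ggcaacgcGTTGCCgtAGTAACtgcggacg
On GRCm38.p6 they lie at chr2:152962466-152962495 on the plus strand (Ttll9), chr4:156050823-156050852 on the minus strand (Ttll10) and chr4:41569767-41569796 on the plus strand (Dnaic1). The others lie at chr11:114727378-114727407 on the plus strand (Dnaic2), chr4:126325696-126325725 on the minus strand (Tekt2), chr8:110266948-110266977 on the plus strand (Hydin) and chr1:69826859-69826888 on the plus strand (Spag16). The windows of Ttll6, Rsph6a and Dnahc2 held no match, which says only that these letters are not in them. Rsph1, the member that fell by the deposited test, and Rsph4a, Ttll1 and Ttll11 had no window and were not searched.

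In both groups library A differed from the other two libraries. The summed level of the 11 fibroblast and feeder markers with values per library was 20234 normalised reads in ICRF-193-A against 3285 and 2676 in ICRF-193-B and ICRF-193-C, and 17616 in DMSO-A against 1952 and 1954. Over the 37 members and dynein genes at or above 10, the ratio of A to the mean of B and C had a median of 1.07 with a range of 0.442 to 2.77 in ICRF-193, and a median of 1.2 with a range of 0.335 to 3.49 in DMSO. Across these 37 genes, which are not independent and share the same libraries, Spearman's rho of that ratio with exonic length was 0.488 in ICRF-193 and 0.666 in DMSO. Depth ran from 24974718 to 39317166 worked-back reads per library over 18606 genes.

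The cells had the markers of their label. All 10 embryonic stem cell markers were above 10 normalised reads, with Pou5f1 at 32352 in ICRF-193 and 42678 in DMSO, and 2 of the 10, Zfp42 and Lin28a, were lower by the deposited test. The 6 of them with values per library summed to between 40552 and 41443 normalised reads in ICRF-193 and between 64278 and 69193 in DMSO. Of 14 markers of multiciliated cells, a list that shares 8 genes with those described here, 4 were under 10, and the list summed to between 1708 and 1838 normalised reads per library in ICRF-193 and between 1149 and 1268 in DMSO. By the deposited test Foxj1 was higher and Rsph1 lower among them. The part of these marker levels in the results that follow was not tested. Of 12 male germ cell markers 6 were under 10, Tnp1 was at 0 in both groups and no marker passed the test; they summed to 1879 to 2978 per library in ICRF-193 and 1812 to 3357 in DMSO. The label motile cilium names the genes and not the cells.

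In ES cells treated with ICRF-193, 4 of the 26 members rose and 1 fell by the DESeq test in the authors' deposited table (adjusted p under 0.05), while 21 did not pass. Of all 14939 genes at or above 10, 7.18% rose and 1.57% fell by the same test. The risen members were Ttll6, Ttll9, Ttll10 and Rsph6a, and the fallen member was Rsph1. Ttll10 reached the level of 10 only through the treated group, so nothing is read from the count of 4 against that share. At an unadjusted p under 0.05 the DESeq test had 6 members higher and 2 lower. Of the 11 dynein genes, Dnaic1 and Dnahc2 rose and 0 fell, and at an unadjusted p under 0.05 the same DESeq test had 3 higher and 0 lower. The share of all genes at an unadjusted p under 0.05 was not worked out, so nothing is read from counts at that threshold, here or below. The median log2 fold change was 0.23 over the 26 members and 0.44 over the 11 dynein genes, beside -0.05 over all genes at or above 10. Like Ttll10, Rsph9 reached the level of 10 only through the treated group. Nothing is therefore read from the members' median against that of all genes.

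**Figure D1:**
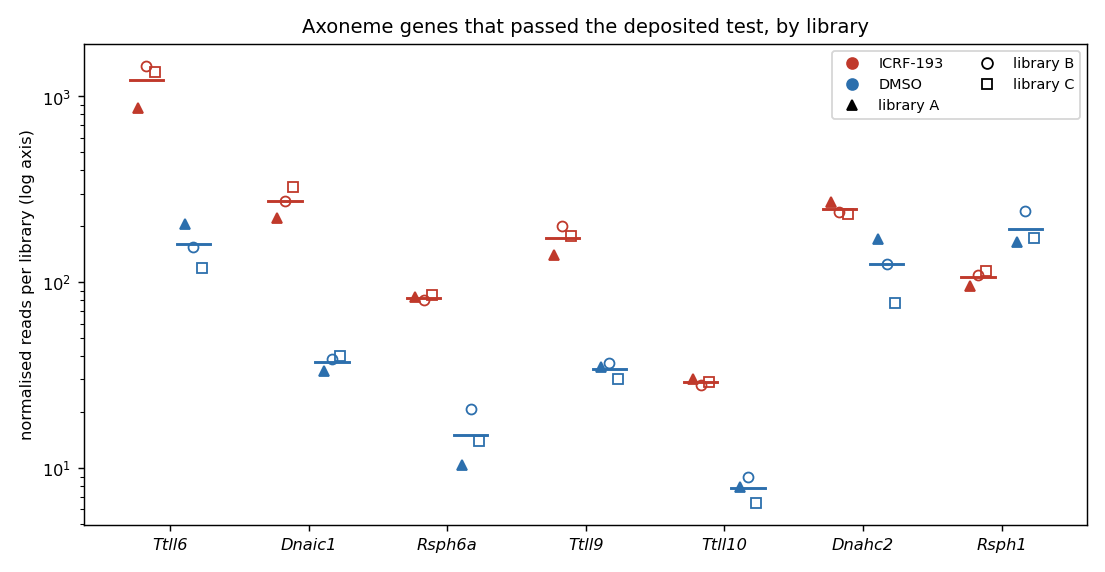
Normalised reads per library on a log axis for the 7 axoneme genes that passed the deposited test, ICRF-193 in red left of DMSO in blue, with filled triangles for libraries A, open circles for B, open squares for C and a line at the group mean. For 6 genes every ICRF-193 library lies above every DMSO library, and for Rsph1 every ICRF-193 library lies below.

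Among the tubulin-modifying enzymes, 3 of the 10 genes at or above 10 rose and 0 fell. Of all genes at or above 10, 7.18% rose and 1.57% fell by the same deposited test. Ttll10, among the 3, reached that level only through the treated group, so nothing is read from the 3 against that share. Ttll6, which lengthens glutamate chains on ciliary tubulin, had 863, 1462 and 1361 normalised reads in ICRF-193-A, B and C and 207, 154.8 and 120 in DMSO-A, B and C. Every treated library lay above every control library, and ICRF-193-A was the lowest of the treated while DMSO-A was the highest of the controls. Its mean was 1229 ± 321 in ICRF-193 and 161 ± 43.8 in DMSO (mean ± SD, n = 3), a 7.65-fold difference. The authors' deposited table gives a log2 fold change of 2.94 (DESeq, adjusted p = 1.49e-09), and limma-voom on the worked-back reads gave 2.91 ± 0.30 (SE; adjusted p = 0.00338). Within libraries A the log2 ratio was 2.06, and within libraries B and C it was 3.36.

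Ttll9, a glutamylase of the mouse sperm flagellum, had 140.5, 200.1 and 177 normalised reads in the ICRF-193 libraries and 35, 36.7 and 30.3 in the DMSO libraries. Every treated library lay above every control library, and the control libraries were close together. Ttll9 rose 5.08-fold to 173 ± 30.1 in ICRF-193 against 34 ± 3.34 in DMSO (mean ± SD, n = 3). On the log2 scale the deposited fold change was 2.34 (DESeq, adjusted p = 2.95e-10), and limma-voom gave 2.31 ± 0.22 (SE; adjusted p = 0.00287).

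Ttll10, which extends glycine chains on tubulin, was a low gene. It had 30, 27 and 26 reads in the ICRF-193 libraries and 10, 9 and 6 reads in the DMSO libraries before scaling, so it reached the level of 10 only through the treated group. As normalised reads it was at 29.1 ± 1.06 in ICRF-193 and 7.79 ± 1.23 in DMSO (mean ± SD, n = 3), 3.73-fold higher. Its deposited log2 fold change was 1.9 (DESeq, adjusted p = 0.0134), and limma-voom gave 1.85 ± 0.25 (SE; adjusted p = 0.00708). The enzymes that start glycine chains, Ttll3 and Ttll8, did not pass: Ttll3 was at 169 ± 31 in ICRF-193 and 118 ± 49.1 in DMSO (mean ± SD, n = 3), and Ttll8 had 5, 10 and 5 reads in ICRF-193 against 6, 1 and 3 in DMSO.

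The most abundant Ttll genes did not pass the test. Ttll4, which starts glutamate chains, had 5594, 4563 and 4558 normalised reads in the ICRF-193 libraries and 6119, 4797 and 5236 in the DMSO libraries. The divergent family member Ttll12 had 3893, 3285 and 3418 in ICRF-193 and 3770, 3507 and 3687 in DMSO. For both genes the groups overlapped. Ttll1, the catalytic subunit of a glutamylase complex, had 1169, 1071 and 1054 in ICRF-193 and 974, 813 and 777 in DMSO. Its treated libraries all lay above the controls, by a deposited log2 fold change of 0.36 (DESeq, adjusted p = 0.555).

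On the log2 scale, the deposited differences were -0.13 for Ttll4 and -0.05 for Ttll12 (DESeq, adjusted p = 0.906 and 1). The 95% intervals of limma-voom ran from -0.46 to 0.19 for Ttll4, -0.29 to 0.19 for Ttll12 and -0.49 to 0.41 for Ttll5. The glutamylase genes Ttll5, Ttll7 and Ttll13 were at 853 ± 140, 89.8 ± 11.4 and 52.1 ± 6.2 normalised reads in ICRF-193, and at 878 ± 176, 64.8 ± 15.6 and 49.8 ± 15.8 in DMSO (mean ± SD, n = 3). Below the level of 10, Ttll11 had 7, 9 and 4 reads in ICRF-193 and 9, 8 and 8 in DMSO, and Ttll2 had 0, 0 and 2 in ICRF-193 and 0 in each DMSO library.

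**Figure D2:**
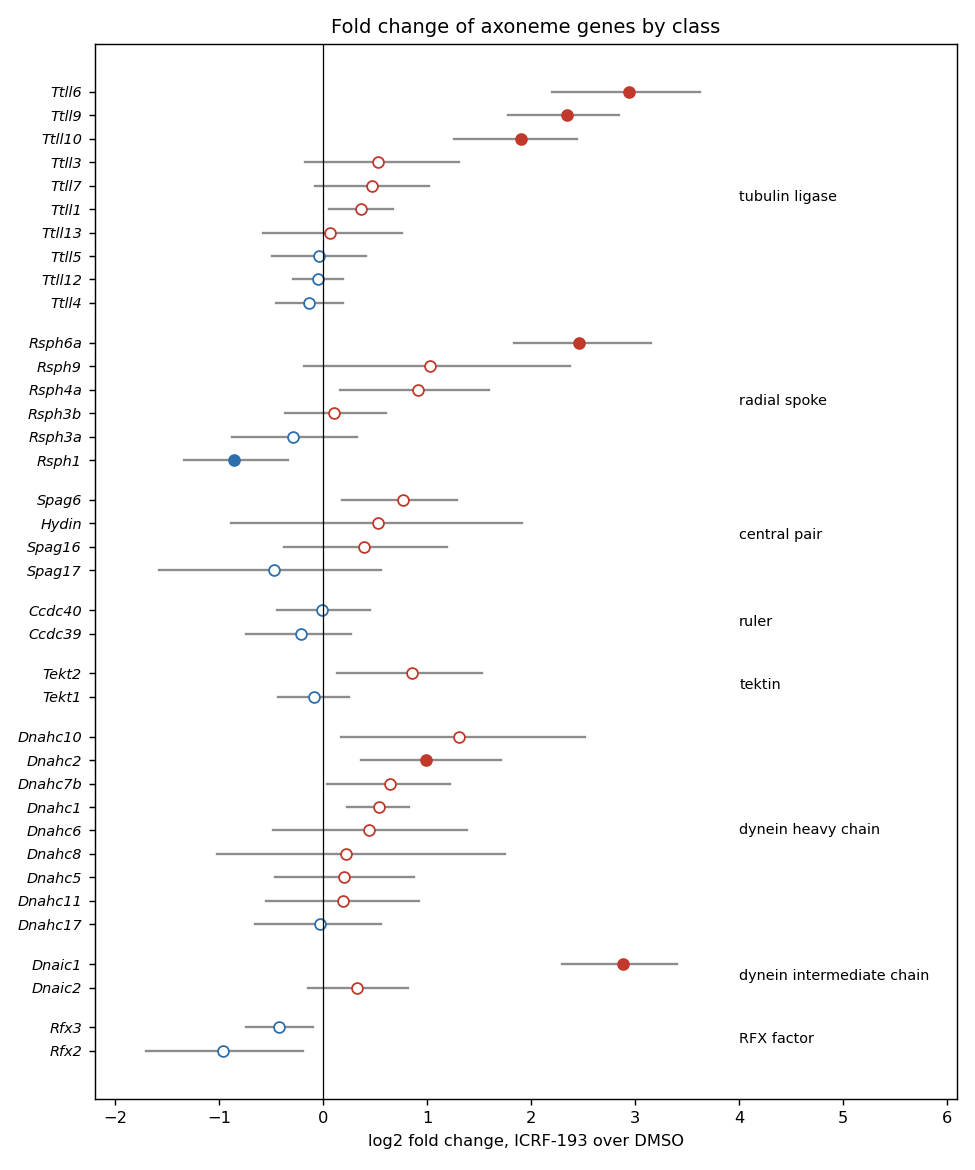
Log2 fold change of ICRF-193 over DMSO for the 26 members and 11 dynein genes at or above 10 normalised reads, grouped by class. Points are deposited values, red above 0 and blue below, filled where the deposited test was passed, and bars are 95% intervals of limma-voom on worked-back reads; the filled points at the right are Ttll6, Ttll9, Ttll10, Rsph6a and Dnaic1, between 1.9 and 2.94.

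The radial spoke genes went in both directions. Rsph6a, a spoke head protein of the mouse sperm flagellum, had 83.3, 79.8 and 85.3 normalised reads in the ICRF-193 libraries and 10.3, 20.8 and 14.1 in the DMSO libraries. The treated libraries were close together and all far above the controls. Rsph6a rose 5.49-fold to 82.8 ± 2.76 in ICRF-193 against 15.1 ± 5.32 in DMSO (mean ± SD, n = 3). The deposited log2 fold change was 2.46 (DESeq, adjusted p = 9.0e-08), and limma-voom gave 2.49 ± 0.27 (SE; adjusted p = 0.00392). Within libraries A it was 3.01 and within libraries B and C 2.24.

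Rsph1, a spoke head protein of airway cilia and sperm, had 95.4, 109.9 and 114 normalised reads in the ICRF-193 libraries and 164, 243 and 174 in the DMSO libraries. It fell to 0.55 of its DMSO level without overlap of the groups, to 107 ± 9.98 in ICRF-193 against 194 ± 43.1 in DMSO (mean ± SD, n = 3). On the log2 scale its deposited fold change was -0.86 (DESeq, adjusted p = 0.048), close to the threshold. In limma-voom it was -0.84 ± 0.21 (SE; adjusted p = 0.0417). Without DMSO-A it passed in limma-voom (adjusted p = 0.0304), and without any other single library it did not, with an adjusted p of up to 0.132.

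The remaining spoke genes did not pass. Rsph4a, the head protein that Rsph6a resembles, had 109.4, 75.7 and 59.5 normalised reads in ICRF-193 and 51.7, 44.6 and 33.5 in DMSO. The groups did not overlap, and each treated library was above each control library, but the deposited log2 fold change of 0.91 had a DESeq adjusted p = 0.14. Rsph9, another head protein, was at 18.9 ± 7.42 in ICRF-193 and 9.26 ± 4.57 in DMSO (mean ± SD, n = 3), with 5 reads in DMSO-A; like Ttll10, it was below 10 in the control group. The stalk genes Rsph3a and Rsph3b were at 31.4 ± 5.15 and 38.3 ± 1.83 in ICRF-193 and at 38.5 ± 7.3 and 35.7 ± 4.52 in DMSO (mean ± SD, n = 3). These last 2 are near-identical copies, and how the counting split their reads is not given in the sources used here.

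Genes of the central pair and the ruler gave 0 calls, beside 7.18% of all genes at or above 10 higher and 1.57% lower. They also gave 0 at an unadjusted p under 0.05 in the DESeq table. In limma-voom none of these 6 passed, and with a term for libraries A limma-voom called Spag6 and Hydin higher (adjusted p = 0.015 and 0.00666), in a fit that called 27.2% of all genes higher. Hydin, a very large central pair protein, had 269, 92.3 and 102 normalised reads in the ICRF-193 libraries and 192, 71.4 and 59.4 in the DMSO libraries. Library A was the highest in each group, so the groups overlapped although A exceeded A, and B and C exceeded B and C. Hydin averaged 154 ± 99.3 in ICRF-193 and 108 ± 73.2 in DMSO (mean ± SD, n = 3), with a deposited log2 fold change of 0.52 (DESeq, adjusted p = 0.918).

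Spag6, a central pair protein needed for beating, had 62.2, 42.5 and 60.6 normalised reads in ICRF-193 and 33.4, 32.7 and 31.3 in DMSO. Its groups did not overlap, and the deposited log2 fold change was 0.76 (DESeq, adjusted p = 0.304). The mouse has a second near-identical Spag6 gene, so its reads are uncertain. Spag16 was at 24.2 ± 5.91 in ICRF-193 and 18.4 ± 5.58 in DMSO, and Spag17 at 16.6 ± 6.71 in ICRF-193 and 23.1 ± 9.62 in DMSO (mean ± SD, n = 3). Both overlapped between groups, and Spag17 had log2 ratios of -1.92 within libraries A and 0.22 within libraries B and C.

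Ccdc40 had 822, 1091 and 1059 normalised reads in ICRF-193 and 792, 1091 and 1117 in DMSO, and Ccdc39, its partner in the ruler, had 59.2, 85.0 and 84.2 in ICRF-193 and 97.9, 87.3 and 80 in DMSO. The groups overlapped for both genes. The deposited log2 fold changes were -0.01 for Ccdc40 and -0.22 for Ccdc39 (DESeq, adjusted p = 1 and 0.866). Ccdc39 shares 16.9% of its exonic bases with Ttc14 on the opposite strand, a gene at 3518 normalised reads in ICRF-193 and 3153 in DMSO. Spag17 likewise shares 9.66% with Wdr3, at 5489 in ICRF-193 and 6963 in DMSO. Dnahc11 shares 4.44% with Cdca7l on the opposite strand, at 1015 in ICRF-193 and 1833 in DMSO. The strand of the libraries is not given in the sources used here, so reads of such pairs cannot be told apart. Ttll3 shares 5.61% of its exonic bases with Arpc4 on the same strand, at 5266 in ICRF-193 and 5523 in DMSO. For that pair the strand would not separate the reads.

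Of the tektins, only Tekt1 and Tekt2 were at or above 10. Tekt2, a filament protein of cilia and sperm tails, had 142, 262 and 245 normalised reads in ICRF-193 and 94.7, 129 and 136 in DMSO. Its treated libraries all exceeded the controls, with a deposited log2 fold change of 0.85 (DESeq, adjusted p = 0.119). Tekt1 had 127, 118 and 127 in ICRF-193 and 142, 128 and 127 in DMSO, so its groups barely separated, with a deposited log2 fold change of -0.09 (DESeq, adjusted p = 0.989). The other tektins were low: Tekt3 had 0, 4 and 0 reads in ICRF-193, Tekt4 had 3, 5 and 2, and Tekt5 had 7, 12 and 6. In DMSO, Tekt3 and Tekt4 were at 0 in each library and Tekt5 had 10, 3 and 6 reads. None of these passed the deposited test. At the level that chose the members, Rsph9 with a mean of 14.1 and Ttll10 with 18.4 normalised reads lay just inside, and Ttll11 with 7.43 and Tekt5 with 7.27 just outside.

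Among the dynein genes, the lowest adjusted p belonged to an intermediate chain. Dnaic1 (Dnai1), an intermediate chain that anchors the outer dynein arm, had 222, 275 and 328 normalised reads in the ICRF-193 libraries and 33.4, 38.7 and 40 in the DMSO libraries. All 3 treated libraries lay far above all 3 control libraries. Dnaic1 rose 7.35-fold to 275 ± 52.9 in ICRF-193 against 37.4 ± 3.47 in DMSO (mean ± SD, n = 3). Its deposited log2 fold change was 2.88 (DESeq, adjusted p = 4.86e-17), limma-voom gave 2.85 ± 0.23 (SE; adjusted p = 0.00214), and the log2 ratio was 2.73 within libraries A and 2.94 within libraries B and C.

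Its partner in the arm did not pass the test. Dnaic2 (Dnai2), the second intermediate chain, had 107, 92.3 and 110 normalised reads in ICRF-193 and 78.8, 100.2 and 68.1 in DMSO, with overlapping groups. Its deposited log2 fold change was 0.33 (DESeq, adjusted p = 0.743), and the 95% interval of limma-voom ran from -0.14 to 0.82, wholly below the interval of Dnaic1, from 2.3 to 3.4. The difference between the 2 genes was not tested. Dnali1, a light intermediate chain of inner arms, had 5, 11 and 1 reads in ICRF-193 and 5, 5 and 3 in DMSO.

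The heavy chains are the motors themselves. Dnahc2 (Dnah2), an inner arm motor, had 272, 239.5 and 232 normalised reads in ICRF-193 and 172, 125 and 77.8 in DMSO, without overlap. It rose 1.98-fold to 248 ± 21.2 in ICRF-193 against 125 ± 47.1 in DMSO (mean ± SD, n = 3), with a deposited log2 fold change of 0.99 (DESeq, adjusted p = 0.0169). In limma-voom it did not pass (1.03 ± 0.28, SE; adjusted p = 0.0537), and without DMSO-A it did (adjusted p = 0.0182). Without any other single library limma-voom gave it an adjusted p of up to 0.156.

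Dnahc10, also of inner arms, had a higher fold change with a wider spread. It had 499, 245 and 221 normalised reads in ICRF-193 and 224, 79.4 and 87.5 in DMSO, with DMSO-A above ICRF-193-C. The deposited log2 fold change was 1.3 (DESeq, adjusted p = 0.342), while within libraries A it was 1.15. With a term for libraries A, limma-voom called it higher (adjusted p = 9.59e-06), in a fit that called 27.2% of all genes higher. Dnahc1, another inner arm motor, had 354, 359 and 328 in ICRF-193 and 256, 234 and 230 in DMSO. Its groups did not overlap. Dnahc1 passed in limma-voom (0.53 ± 0.12, SE; adjusted p = 0.0359) but not in the deposited DESeq test (adjusted p = 0.294).

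Dnahc8, a heavy chain of outer arms in sperm, had the most reads of the heavy chains. It had 1818, 907 and 751 normalised reads in ICRF-193 and 1902, 621 and 468 in DMSO, so that library A was the highest in each group. Its deposited log2 fold change was 0.22 (DESeq, adjusted p = 1). The outer arm genes Dnahc5, Dnahc11 and Dnahc17 were at 19.6 ± 2.27, 23.9 ± 4.8 and 112 ± 25.1 in ICRF-193 and at 17.1 ± 4.53, 21.01 ± 5.97 and 115 ± 27.9 in DMSO (mean ± SD, n = 3). Of the inner arm genes, Dnahc6 and Dnahc7b were at 29.5 ± 8.99 and 17.5 ± 1.37 in ICRF-193 and at 21.8 ± 8.07 and 11.2 ± 1.27 in DMSO (mean ± SD, n = 3). Dnahc9, an outer arm motor, had 8, 6 and 4 reads in ICRF-193 and 5, 4 and 1 in DMSO.

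Set per length, the dynein motors covered a wide range of levels. The level per kb was the group mean divided by the total exonic length of the gene in GENCODE M21. Ttll12 was highest at 874 normalised reads per kb in ICRF-193 and 905 in DMSO, followed by Ttll4 at 426 in ICRF-193 and 467 in DMSO. Among the heavy chains, Dnahc8 was highest at 43.2 per kb in ICRF-193 and 37.2 in DMSO, and Dnahc1 was at 26.6 in ICRF-193 and 18.4 in DMSO. Dnahc7b was lowest at 0.876 per kb in ICRF-193 and 0.56 in DMSO. Ttll6 was at 319 per kb in ICRF-193, against 41.6 in DMSO, and Dnaic1 stood at 98.8 in ICRF-193 and 13.4 in DMSO.

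**Figure D3:**
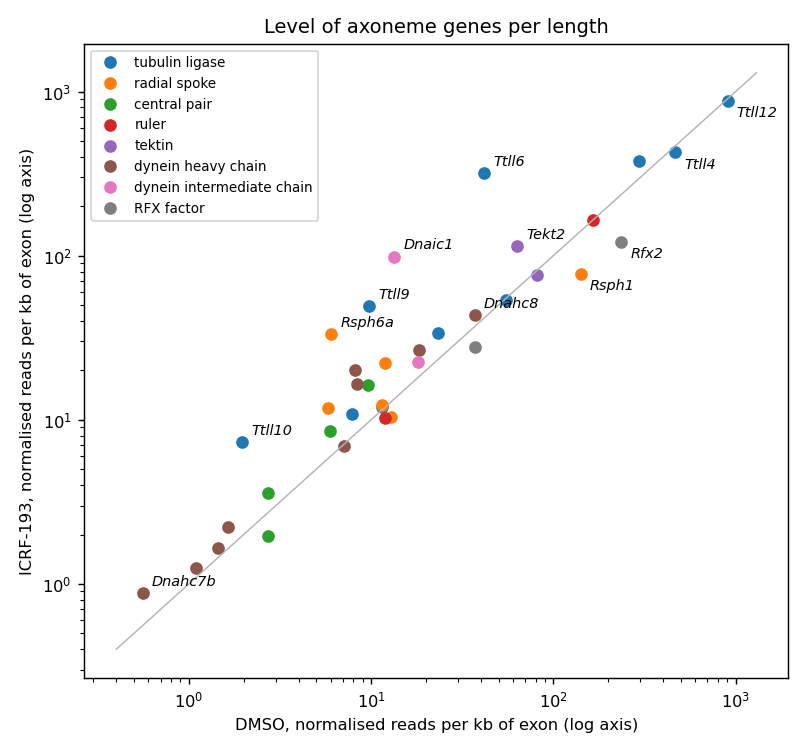
Group mean per kb of exon in ICRF-193 (vertical, log axis) against DMSO (horizontal, log axis) for the 37 members and dynein genes, coloured by class, with a line of equal level. Ttll6, Dnaic1, Ttll9, Rsph6a and Ttll10 lie farthest above the line, and Rfx2 and Rsph1 below it; levels run from 0.876 to 874 per kb in ICRF-193.

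The regulators Rfx2 and Rfx3 were lower in every treated library but did not pass the deposited test. Rfx2 had 1167, 807 and 673 normalised reads in ICRF-193 and 2413, 1570 and 1189 in DMSO, and Rfx3 had 313, 312 and 292 in ICRF-193 and 463, 386 and 383 in DMSO. For neither gene did the groups overlap. Deposited log2 fold changes were -0.97 for Rfx2 (DESeq, adjusted p = 0.185) and -0.42 for Rfx3 (DESeq, adjusted p = 0.425). In limma-voom both missed the threshold (adjusted p = 0.0901 and 0.0813), and with a term for libraries A both passed (adjusted p = 2.69e-05 and 0.00263). That fit called 32.4% of all genes lower. Of all genes at or above 10 with values per library, 18.7% were lower without overlap.

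Across the 26 members, the treated libraries all lay above the controls for 8 genes, all below for 4, and overlapped for 14. Of all genes at or above 10 with values per library, 18.6% were higher and 18.7% lower in this way. Ttll10, among the 8, reached the level of 10 only through the treated group, so nothing is read from the 8 against that share. Of the 11 dynein genes, 4 were higher without overlap and 0 lower. Within libraries A and within libraries B and C the ICRF-193 over DMSO ratio had the same sign for 21 of the 26 members. The exceptions were Ccdc39, Ccdc40, Spag17, Ttll12 and Ttll13. The median log2 ratio of the members was 0.19 within libraries A and 0.22 within libraries B and C.

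**Figure D4:**
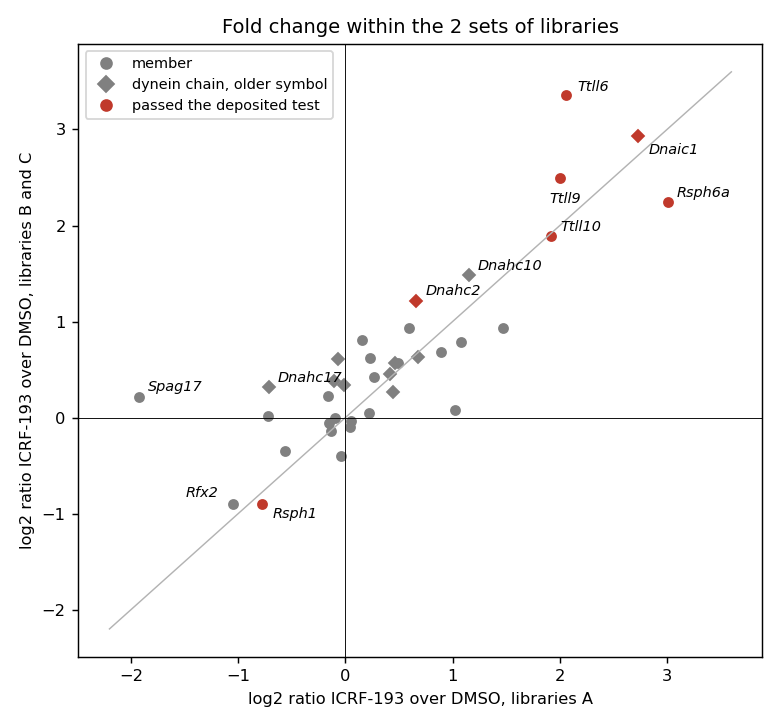
Log2 ratio of ICRF-193 over DMSO within libraries A (horizontal) and within libraries B and C (vertical), circles for members and diamonds for dynein genes, red where the deposited test was passed, with a line of equal ratio. Each of the 7 red points has the same sign on both axes, and Spag17 at -1.92 and 0.22 lies farthest from the line.

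How the libraries were modelled set how many members passed. Limma-voom with the group as its only term called the same numbers as the deposited test, 4 members higher and 1 lower, with 9.84% of 14874 genes higher and 5.86% lower. With a term for libraries A it called 12 members higher and 4 lower, with 27.2% of all genes higher and 32.4% lower. Without both libraries A it called 10 higher and 3 lower, with 25.2% and 28.6% of all genes. The 8 members added as higher by the term for libraries A were Hydin, Rsph4a, Rsph9, Spag6, Tekt2, Ttll1, Ttll3 and Ttll7. Those added as lower were Rfx2, Rfx3 and Ttll4. In these fits the share of all genes called was larger too. Ttll10 and Rsph9 reached the level of 10 only through the treated group, so nothing is read from the counts higher against those shares.

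Other genes of cilia were taken from lists of known components. Among the regulators of multiciliated cells and centriole amplification, 3 of 21 genes with reads rose and 0 fell by the deposited DESeq test, with a median log2 fold change of -0.06 over the 17 at or above 10. Of all 18759 genes with reads, 5.97% rose and 1.26% fell by that test. Limma-voom called the same 3 genes higher and Plk4, a kinase that starts centriole duplication, lower (-0.64, adjusted p = 0.00747). Foxj1, the main switch of motile cilium genes, had 342, 422 and 523 normalised reads in ICRF-193 and 78.8, 102 and 125 in DMSO. It rose 4.2-fold without overlap (deposited log2 fold change 2.07; DESeq, adjusted p = 2.57e-09). Trp73, which acts upstream of Foxj1 in multiciliated cells of the mouse and is also a p53 relative, had 1384, 1402 and 1596 in ICRF-193 and 127, 132 and 130 in DMSO (deposited log2 fold change 3.5; DESeq, adjusted p = 5.93e-32). Foxn4, a factor known in multiciliated cells of Xenopus, rose 2.48-fold to 535 ± 63.3 in ICRF-193 against 216 ± 23.6 in DMSO (mean ± SD, n = 3; DESeq, adjusted p = 5.71e-05).

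Other regulators of the same programme did not pass the deposited test. Ccno, needed to amplify centrioles, was at 448 ± 14.3 in ICRF-193 and 307 ± 98.7 in DMSO (mean ± SD, n = 3), with a deposited DESeq adjusted p = 0.185. Mcidas, listed as Gm6320, had 14, 12 and 11 reads in ICRF-193 and 7, 1 and 4 in DMSO (DESeq, adjusted p = 0.19). Gmnc, listed as Gm606, had 4, 8 and 5 reads in ICRF-193 and 3, 5 and 7 in DMSO. Its groups overlapped, with a deposited log2 fold change of 0.27 (DESeq, adjusted p = 0.998). Myb, which acts early in multiciliated cells, was at 163 ± 45.7 in ICRF-193 and 324 ± 93.4 in DMSO (mean ± SD, n = 3), with a deposited log2 fold change of -0.99 (DESeq, adjusted p = 0.0909). All treated libraries of Ccno and Mcidas lay above, and those of Myb below, the control libraries. With a term for libraries A, limma-voom called Ccno higher (adjusted p = 0.00935) and Myb lower (adjusted p = 2.18e-05). That fit called 27.2% of all genes higher and 32.4% lower. Without both libraries A, Ccno no longer passed in limma-voom (adjusted p = 0.0534). Mcidas was also called higher with the term for libraries A (adjusted p = 0.0053). It met the read filter of limma-voom only through the treated group, so nothing is read from that call.

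Most other structural and transport genes did not pass. Of 39 genes of intraflagellar transport and the primary cilium, 1 rose and 0 fell by the deposited test, with a median of -0.09, beside the 5.97% and 1.26% of all genes with reads. The risen gene was Wdr35, a subunit of the retrograde transport complex, which rose 3.16-fold to 8320 ± 700 in ICRF-193 against 2632 ± 505 in DMSO (mean ± SD, n = 3). Of 23 genes of the nexin link and the central pair, 1 rose: Nme5, a protein of the spoke and central pair region, at 50.2 ± 1.8 in ICRF-193 and 19.1 ± 2.46 in DMSO (mean ± SD, n = 3). Of 6 deglutamylases, which remove what Ttll enzymes add, Agbl2 rose 3.11-fold to 83.6 ± 25.2 in ICRF-193 against 26.9 ± 18.2 in DMSO (mean ± SD, n = 3). The deposited log2 fold changes were 1.66 for Wdr35, 1.4 for Nme5 and 1.64 for Agbl2 (DESeq, adjusted p = 5.25e-09, 0.0179 and 0.026), while limma-voom gave Agbl2 an adjusted p = 0.0561, above the threshold. Limma-voom also called Kif17 (1.08, adjusted p = 0.0246) and Bbs7 (0.66, adjusted p = 0.0243) of the transport list, Iqcg of the nexin link list (0.58, adjusted p = 0.0473) and the deglutamylase Agbl5 (0.64, adjusted p = 0.00965) higher, none of which passed the deposited test. These 4 genes and Plk4 are named after their values were seen.

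Dynein light chains and dynein assembly and docking genes gave 0 calls among 10 and 15 genes with reads in the DESeq table. Of all genes with reads, 5.97% rose and 1.26% fell by that test. In limma-voom both lists gave 0 calls too. At an unadjusted p under 0.05, the DESeq table had 1 light chain and 1 assembly and docking gene higher and 0 lower. The share of all genes at that threshold was not worked out. With a term for libraries A, limma-voom called 2 light chains higher and 1 lower. It called 1 assembly and docking gene higher and 4 lower, in a fit that called 27.2% of all genes higher and 32.4% lower. The medians of the light chains and of the assembly and docking genes were -0.11 and 0.05. The median over all genes at or above 10 was -0.05.

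**Figure D5:**
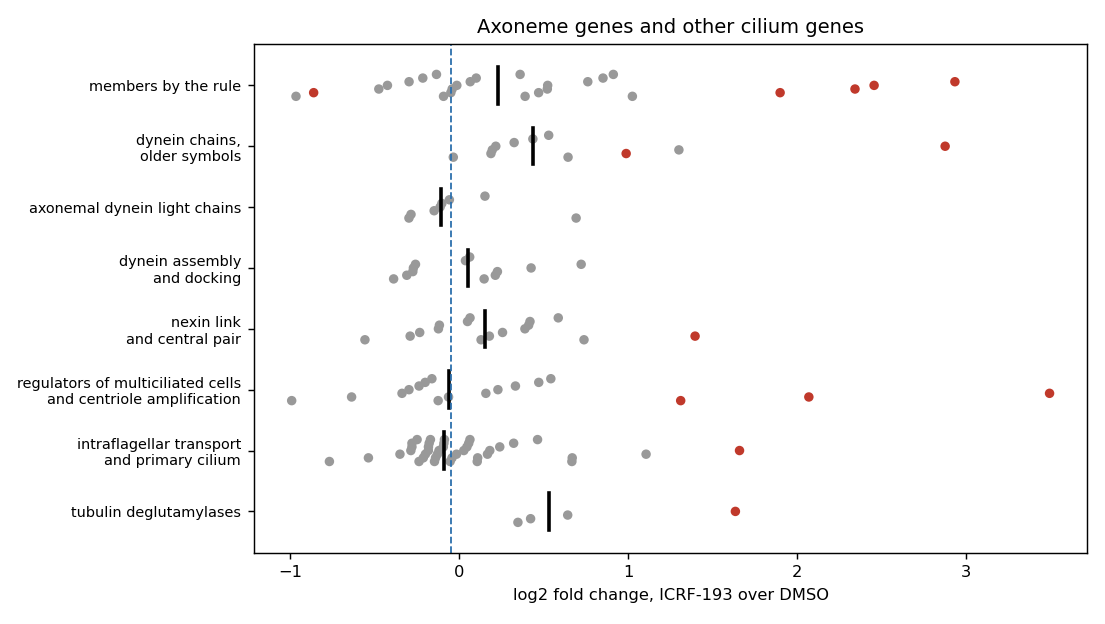
Log2 fold change of ICRF-193 over DMSO for each gene at or above 10 normalised reads in the members, the dynein genes and 6 further lists, red where the deposited test was passed, with a black bar at the list's median and a dashed line at the median of all genes, -0.05. Medians run from -0.11 for light chains to 0.53 for deglutamylases.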

How the data were processed

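The deposited table holds 1 row per gene. Its tools were TopHat, HTSeq and DESeq with build mm9, per the submitters' processing notes; versions, annotation, strand and settings are not given in the sources used here. The deposited group columns are a signal, group means of reads after scaling by size factors, per the file headers. The authors' fold change is the ratio of ICRF-193 over DMSO means and the deposited log2 value is its log2; recomputed ratios differed by at most 1.14e-13. The p-values that the authors deposited are from their own DESeq comparison, and their adjustment is Benjamini-Hochberg over 18759 genes with reads.

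Group means carry 15 digits, so whole reads per library were worked back by finding the 3 whole numbers that give each mean. A single solution existed for 18207 genes (97.1%), including all 16787 genes with both means below 5000; 399 more had a solution with a posterior of at least 0.99, and 153 stayed unresolved and were left out. All members had a single solution. On simulated data, 2893 of 2893 single solutions were exact. Limma-voom (limma 3.58.1, R 4.3.3) used these reads after a filter (10 or more reads in 3 or more libraries) that kept 14874 genes, scaled by the authors' size factors. SDs are over the 3 libraries of a group. The model with a term for libraries A, scaling, filter, level and left-out libraries were alternatives. Lists and members were chosen with earlier results of these data known. The 138 listed symbols gave 129 matches through RefSeq synonyms. The genes named in full are all members at or above 10, with values per library for called members and the 3 most abundant of each class. No column of counts is in the file, so DESeq2 and the like were not run.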

Additional observations from a re-analysis of the deposited data

How the results depend on the processing

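The count of 4 members higher was 2 with a level of at least 50, 12 with a term for libraries A and 10 without both libraries A (chosen after seeing the data), and ranged from 4 to 6 in limma-voom without single libraries. The count of 1 lower was 4 with that term, 3 without both libraries A, 0 with total read scaling, and 0 to 1 without single libraries. Of all 14874 genes, the fits without single libraries called 488 to 1726 higher and 113 to 1368 lower. Total read scaling called 1791 higher and 453 lower, and the term for libraries A called 4041 higher and 4813 lower. Without both libraries A, 3750 were called higher and 4251 lower. Nothing is therefore read from how the member counts moved, and the cause was not tested. The median log2 fold change of 0.23 was 0.35 with total read scaling, which moved the median of all genes from -0.04 to 0.07, and 0.13 to 0.28 without single libraries. Ttll6, Ttll9, Rsph6a and Dnaic1 passed in all 12 limma-voom fits, Rsph1 in 6 and Dnahc2 in 4. Ttll10 passed in all 12 too, but it reached the level of 10 and the read filter only through the treated group. Directions turned without both libraries A for Ccdc39 (0.016), Spag17 (0.21) and Dnahc17 (0.30), and with total read scaling for Ccdc40 (0.11), Tekt1 (0.014), Ttll12 (0.056), Ttll5 (0.067) and Dnahc17 (0.054). Without single libraries, values of the other sign were -0.13 and -0.014 for Ttll13, 0.072, 0.086 and 0.13 for Ccdc40, 0.0035, 0.045 and 0.13 for Ttll5, -0.034 and -0.021 for Dnahc8, 0.10 and 0.15 for Dnahc17, and -0.016 for Dnahc11; none of these genes passed the deposited test. No paired analysis was possible because the libraries carry no replicate numbers; the term for libraries A sets 1 library of each group apart and pairs none of the others. The 7 members under 10 normalised reads did not pass the read filter of limma-voom, and none passed the deposited test.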
